A study of Mus musculus with 30 samples.

Results

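The 10 genes described here encode receptors that bind dying cells and the soluble molecules that bridge the 2 cells: Axl, Mertk, Tyro3, Gas6, Pros1, Mfge8, Timd4, Stab1, Cd36 and Lrp1. They were chosen by symbol from the 25611 gene rows of a mouse RNA sequencing count table. Each symbol was found in 1 row, and all 10 genes were among the 14808 genes with enough counts to be tested. The libraries came from dendritic cells grown out of mouse bone marrow for 6 to 7 days in 200 ng/ml of the growth factor FLT3L. Donor mice were wild type (WT) or carried a knockout of Rubcn (KO), which encodes a protein needed for LC3-associated phagocytosis. Cells of each genotype were left untreated or received either ovalbumin (OVA) or apoptotic Jurkat cells, and treated cells were taken 30 min or 4 h later. That makes 10 groups of 3 libraries and 30 libraries altogether, so every group shares the FLT3L culture and the KO groups share the Rubcn knockout. The labels give no time for the untreated group of each genotype. In comparisons with untreated cells, treatment and time in culture therefore cannot be told apart. Jurkat is a human T-cell leukaemia line, so these cultures held human RNA beside that of the mouse cells. The dose of OVA, the number of Jurkat cells, the way they were killed, the kind of Rubcn allele and the age of the mice are not stated in the labels. The labels number the replicates without saying that they came from separate mice, so the p-values measure the spread between these libraries, which may be technical.

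A dying cell exposes phosphatidylserine on its outer surface, and phagocytes recognise that lipid directly or through a bridging protein. Axl, Mertk and Tyro3 form the TAM family of receptor tyrosine kinases, which bind phosphatidylserine through the vitamin K-dependent ligands Gas6, which binds each of them, and protein S (Pros1), a ligand of Mertk and Tyro3. Mfge8 (lactadherin) bridges phosphatidylserine to integrins, Timd4 (TIM-4) and Stab1 (stabilin-1) bind the lipid themselves, Cd36 is a scavenger receptor for oxidised lipids and lipoproteins, and Lrp1 is a large endocytic receptor that also takes up cells marked by calreticulin. In dendritic cells and macrophages the TAM receptors are known both for the uptake of dying cells and for damping inflammatory signalling.

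Total counts ran from 9.73 M to 51.6 M per library, with a median of 44.9 M. The lowest total was that of KO with OVA at 30 min, replicate 3. Levels are given as counts per M counts (CPM) on library sizes scaled by TMM factors. Rubcn counts in KO libraries came to 73.6% to 84.7% of the WT mean in the 5 conditions, and the genotypes did not overlap in any of them. The labels do not say which exons are missing, so a count over the whole gene is a partial check. The library of KO with Jurkat cells at 4 h, replicate 2, stood apart from replicates 1 and 3 in a chi-square comparison of counts (129 and 134 per gene, against 2.28 to 16.6 for every other pair of replicates). Of that, 92.7% and 94.2% came from Rn45s (the ribosomal RNA precursor), Lars2 and Mir6236, and without these 3 genes the values were 6.57 and 4.83. Rn45s took 3.9% of the counts of that library and 0.0949% to 0.384% in the other 29. Without this library, 39 of 40 member values that use the group kept direction and call, with shifts of at most 0.13 on the log2 scale. The exception was Lrp1 between KO and WT at 4 h with Jurkat cells (log2 0.33, FDR 0.0248 with it and 0.0665 without it). All 6 genes used as markers of dendritic cells in general were well detected, the lowest being Zbtb46 with group means of 74.8 to 110 CPM. Monocyte and macrophage genes were detected too: Csf1r had group means of 326 to 423 CPM, while Vsig4, a marker of tissue-resident macrophages, stayed at 0.317 to 0.787 CPM. These are bulk libraries of mixed cultures, in which a lower count from fewer cells of a type and one from less RNA per cell cannot be told apart.

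Compared per kb of exon, the receptors and ligands covered a wide range in untreated WT cells. Cd36 stood highest with 58.2 ± 13.0 CPM per kb (mean ± SD, n = 3), followed by Axl with 26.1 ± 0.86 CPM per kb. Mfge8, Lrp1 and Pros1 came next with 13.7, 13.0 and 12.7 CPM per kb, and each of these overlapped its neighbour in that order. Gas6 and Stab1 overlapped at 7.96 and 7.34 CPM per kb, and Mertk stood below them at 3.78 CPM per kb. Timd4 and Tyro3 were the scarcest, with 0.545 and 0.123 CPM per kb, so Axl was the leading TAM receptor of these cells and Tyro3 a minor one. After 4 h with apoptotic Jurkat cells, Axl (199 CPM per kb in WT) had passed Cd36 (97.4 CPM per kb), and Timd4 (17.2 CPM per kb) had reached the level of Mfge8 (16.9 CPM per kb). In KO cells the order at that time began with Axl at 143, Cd36 at 115, Mfge8 at 27.0 and Timd4 at 22.1 CPM per kb, with no overlap between these neighbours.

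**Figure D1:**
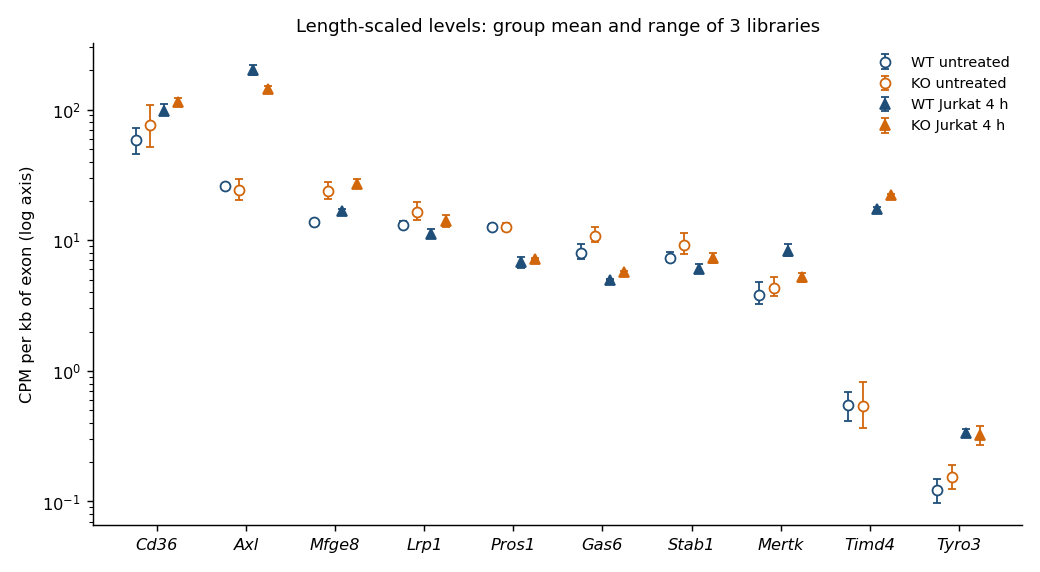
CPM per kb of exon on a log axis for the 10 genes in untreated cells (open circles) and after 4 h with apoptotic Jurkat cells (filled triangles), WT in blue and KO in orange. Symbols are means and bars the range of 3 libraries; Axl passes Cd36 and Timd4 rises from 0.545 to 17.2 CPM per kb in WT cells.

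The 250 bases before the RefSeq start sites (GRCm38.p6) of 4 genes are shown to give their upstream sequence: Axl, Mertk and Timd4, receptors described below for their rise with Jurkat cells in WT, and Mfge8, described for its difference between genotypes. Letters run from 5′ to 3′ along the strand of the gene, and capitals mark GGGCGG, the core of the Sp1 box, or its complement CCGCCC. The windows lie at chr7:25788734-25788983 (minus strand) for Axl, chr2:128698665-128698914 (plus strand) for Mertk, chr11:46810549-46810798 (plus strand) for Timd4 and chr7:79149061-79149310 (minus strand) for Mfge8.
Axl: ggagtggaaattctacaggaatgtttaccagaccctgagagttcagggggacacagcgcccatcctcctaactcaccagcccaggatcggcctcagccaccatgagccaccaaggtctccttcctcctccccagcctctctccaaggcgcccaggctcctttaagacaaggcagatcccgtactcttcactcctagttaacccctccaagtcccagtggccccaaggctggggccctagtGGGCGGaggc
Mertk: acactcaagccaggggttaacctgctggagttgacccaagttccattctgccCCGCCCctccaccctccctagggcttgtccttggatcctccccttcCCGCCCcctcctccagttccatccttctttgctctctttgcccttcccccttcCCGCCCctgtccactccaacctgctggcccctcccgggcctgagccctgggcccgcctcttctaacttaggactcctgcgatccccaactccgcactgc
Timd4: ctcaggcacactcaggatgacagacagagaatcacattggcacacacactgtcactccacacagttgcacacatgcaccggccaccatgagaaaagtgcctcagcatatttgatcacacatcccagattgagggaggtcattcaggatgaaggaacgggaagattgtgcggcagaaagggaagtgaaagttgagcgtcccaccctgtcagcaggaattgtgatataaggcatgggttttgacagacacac
Mfge8: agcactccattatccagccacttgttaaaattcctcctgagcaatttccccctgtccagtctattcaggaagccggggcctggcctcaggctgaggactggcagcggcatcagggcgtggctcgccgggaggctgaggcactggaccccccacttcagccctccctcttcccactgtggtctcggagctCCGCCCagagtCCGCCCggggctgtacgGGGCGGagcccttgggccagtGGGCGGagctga
Altogether 6 motifs were searched on both strands in this window for all 10 genes: an interferon-stimulated response element, a kappaB site, an AP-1 site (TGANTCA), a liver X receptor element, a PU.1 core (GAGGAAGT) and the Sp1 box. Among 32851 promoters of the same length, they occur in 2.98%, 0.356%, 6.75%, 0.0152%, 2.44% and 32.7%. Only the Sp1 box matched, in 8 of the 10 windows, so no matches of different motifs overlapped. It occurs at 1 place in Axl, 3 in Mertk and 4 in Mfge8, and is absent from the windows of Timd4 and Stab1. These matches describe letters, and a motif without a match is only not in this window.

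The first question was how the uptake machinery changed when cells met apoptotic cells for 4 h. In WT cells, 6 of the 10 genes rose and 3 fell against untreated cells, with a false discovery rate (FDR) under 0.05 in edgeR's quasi-likelihood F test adjusted over all genes. At this time 79.5% of all genes tested passed in WT cells (38.9% higher and 40.6% lower), so a count of this size is close to that of genes at large, and only sizes and directions distinguish the members. In KO cells 5 rose and 3 fell, where 78.5% of all genes passed (37.5% higher and 41% lower). The receptors Axl, Timd4, Tyro3, Mertk and Cd36 rose in both genotypes (Mertk in KO turned to -0.054 under total counts), while the ligands Gas6 and Pros1 and the receptor Stab1 fell in both. With total counts as the only scaling, the median over all genes moved to -0.42 in WT and -0.37 in KO cells on the log2 scale, and Mfge8 in WT cells (-0.10) then lay below 0 as well as Mertk in KO cells. Of all genes called, 48.9% rose in WT and 47.7% in KO cells, against 29.0% and 29.2% under total counts.

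**Figure D2:**
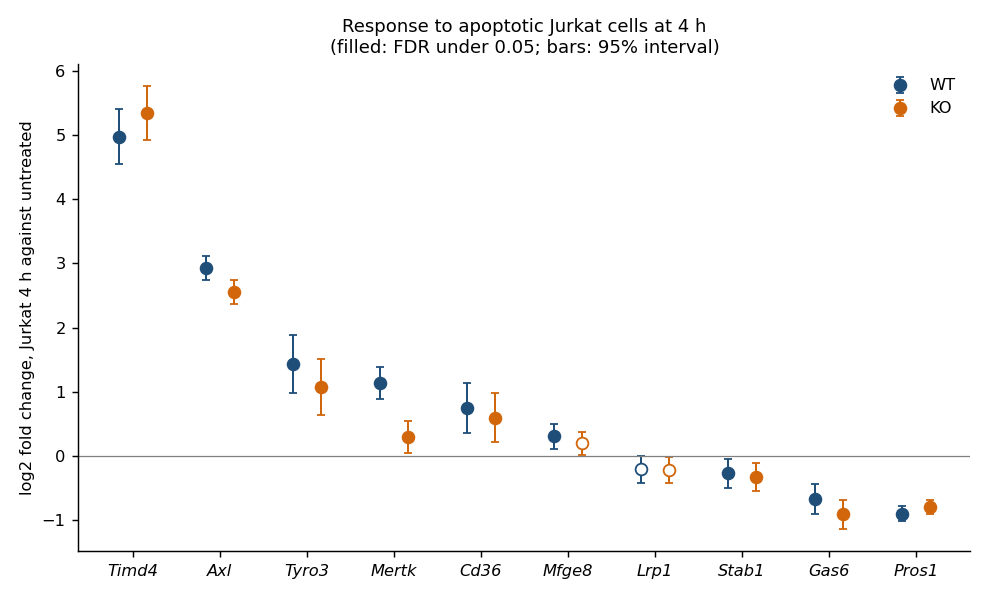
Log2 fold change of each gene after 4 h with apoptotic Jurkat cells against untreated cells, WT in blue and KO in orange, with 95% intervals; filled points passed an FDR of 0.05. Timd4 and Axl lead in both genotypes (4.98 and 2.93 in WT), Gas6, Pros1 and Stab1 lie below 0, and the genotypes separate most at Mertk (1.13 in WT; 0.28 in KO, which turns to -0.054 under total counts).

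Axl (Entrez 26362, mm10 chromosome 7, 25756500 to 25788733, minus strand), the TAM receptor that binds Gas6 most strongly, gave 136, 128 and 129 CPM in the untreated WT libraries and 925, 1111 and 968 CPM after 4 h with Jurkat cells. The untreated KO libraries held 147, 118 and 103 CPM, against 755, 706 and 703 CPM after 4 h with Jurkat cells. In both genotypes every treated library stood far above every untreated one. The log2 fold change was 2.93 in WT (SE 0.0977, FDR 1.91e-21) and 2.56 in KO (SE 0.0964, FDR 4.1e-20), a 7.63-fold and a 5.89-fold rise. Among the 10 groups, WT with Jurkat cells at 4 h stood highest, KO with Jurkat cells at 4 h came next and WT with OVA at 4 h followed, none of them overlapping its neighbour.

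Timd4 (Entrez 276891, mm10 chromosome 11, 46810799 to 46844333, plus strand), a phosphatidylserine receptor best known from resident macrophages, was scarce in untreated cells, with 1.49, 1.16 and 0.898 CPM in WT and 1.78, 0.788 and 0.962 CPM in KO libraries. After 4 h with Jurkat cells it gave 36.4, 38.9 and 36.8 CPM in WT and 48.7, 46.0 and 49.4 CPM in KO libraries. The rise was 31.6-fold in WT (log2 4.98, SE 0.219, FDR 1.46e-18) and 40.8-fold in KO (log2 5.35, SE 0.215, FDR 2.01e-19). It was the steepest among the 10 genes in each genotype. At 4 h with Jurkat cells all KO libraries lay above all WT libraries, but the difference did not pass over all genes (log2 0.36, SE 0.149, FDR 0.0785). It passed under total counts (0.44, FDR 0.0314), with no filter (FDR 0.0483) and with these groups fitted alone (FDR 0.000196). It did not pass with DESeq2 or with the replicate block in all libraries.

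Mertk (Entrez 17289, mm10 chromosome 2, 128698915 to 128803007, plus strand), the TAM receptor most tied to clearance of dying cells by macrophages, gave 20.7, 14.3 and 14.1 CPM in untreated WT libraries and 33.8, 40.5 and 33.0 CPM after 4 h with Jurkat cells. The untreated KO libraries held 22.7, 16.1 and 17.0 CPM, against 24.3, 20.9 and 22.7 CPM with Jurkat cells. The WT libraries separated fully, while in KO the treated and untreated libraries overlapped. The rise was 2.19-fold in WT (log2 1.13, SE 0.126, FDR 2.88e-09) and 1.22-fold in KO (log2 0.28, SE 0.128, FDR 0.0433). The KO call was lost when any of 4 single libraries was left out (untreated replicate 2 or 3, Jurkat 4 h replicate 1 or 3), and under total-count scaling the value was -0.054.

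Tyro3 (Entrez 22174, mm10 chromosome 2, 119797740 to 119818103, plus strand), the TAM receptor best known from the nervous system, rose from 0.757, 0.604 and 0.918 CPM to 2.23, 1.97 and 1.98 CPM in WT cells. The KO libraries went from 0.924, 0.767 and 1.18 CPM to 1.69, 2.36 and 2.01 CPM. The log2 fold changes were 1.44 in WT (SE 0.231, FDR 2.07e-06) and 1.07 in KO (SE 0.221, FDR 7.34e-05), with no overlap in either genotype. The level stayed low: at most 2.36 CPM in any of the 30 libraries.

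**Figure D3:**
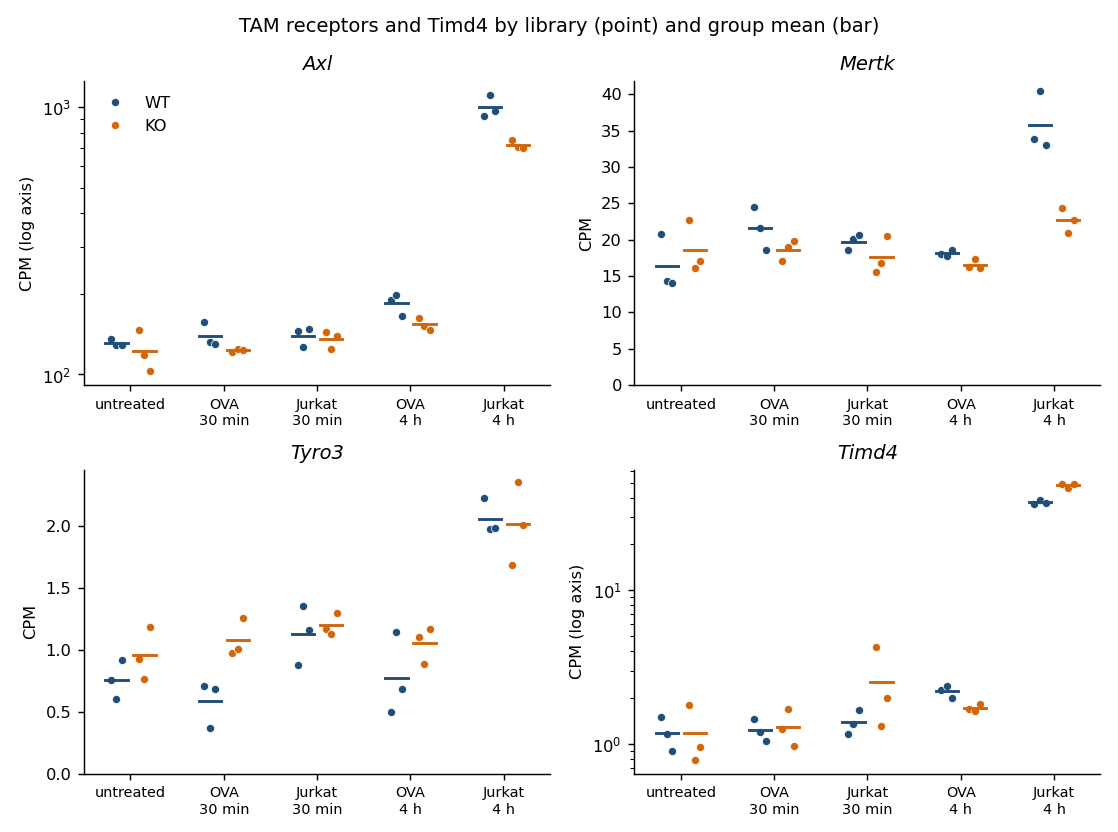
CPM of Axl, Mertk, Tyro3 and Timd4 in each library (points) with group means (bars) over the 5 conditions, WT in blue and KO in orange; Axl and Timd4 are on log axes. With Jurkat cells at 4 h, the WT libraries of Axl (925 to 1111 CPM) and Mertk (33.0 to 40.5 CPM) lie above all KO libraries.

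Cd36 (Entrez 12491, mm10 chromosome 5, 17781690 to 17888959, minus strand) rose from 258, 204 and 165 CPM to 326, 397 and 326 CPM in WT cells (log2 0.74, SE 0.197, FDR 0.00117). In KO cells it went from 391, 244 and 184 CPM to 439, 410 and 386 CPM (log2 0.59, SE 0.196, FDR 0.0075), where the first untreated library overlapped the treated ones. Without the third untreated KO library the KO call was lost, and with total-count scaling both were (log2 0.34 in WT and 0.25 in KO).

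Both TAM ligands fell. Pros1 (Entrez 19128, mm10 chromosome 16, 62854307 to 62929342, plus strand) gave 51.6, 54.3 and 49.4 CPM in untreated WT libraries and 27.4, 30.6 and 24.9 CPM after 4 h with Jurkat cells. The KO libraries went from 55.1, 50.6 and 48.0 CPM to 29.6, 28.6 and 30.0 CPM. Pros1 was 1.87-fold lower in WT (log2 -0.90, SE 0.0584, FDR 1.57e-14) and 1.74-fold lower in KO (log2 -0.80, SE 0.0576, FDR 2.22e-13), without overlap. Gas6 (Entrez 14456, mm10 chromosome 8, 13465374 to 13494535, minus strand) went from 24, 18.6 and 18.2 CPM to 12.7, 12.9 and 12.6 CPM in WT cells, and from 32.0, 24.5 and 25.3 CPM to 14.7, 14.6 and 13.9 CPM in KO cells. The log2 fold changes of Gas6 were -0.67 in WT (SE 0.12, FDR 1.01e-05) and -0.92 in KO (SE 0.115, FDR 2.66e-08), and all treated libraries lay below all untreated ones of their genotype.

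The remaining 3 genes moved little at 4 h with Jurkat cells. Mfge8 (Entrez 17304, mm10 chromosome 7, 79133768 to 79149060, minus strand) was 1.23-fold higher in WT (log2 0.30, SE 0.0957, FDR 0.0058, but -0.10 under total counts) and did not pass in KO (log2 0.19, SE 0.0923, FDR 0.0607). In KO it passed with DESeq2 (FDR 0.0233), its size factors, the stricter filter, scaling without genes higher with Jurkat cells and the groups alone. It did not pass there under total counts, without a filter or with the replicate block in all libraries. Stab1 (Entrez 192187, mm10 chromosome 14, 31139017 to 31168641, minus strand), a scavenger receptor of sinusoidal endothelium and some macrophages, fell by 0.28 in WT (SE 0.114, FDR 0.0279) and by 0.33 in KO (SE 0.112, FDR 0.00923) on the log2 scale. The Stab1 calls were lost with DESeq2 (FDR 0.123 in WT and 0.0511 in KO). The WT call was also lost with DESeq2 size factors, with the stricter filter, or without untreated replicate 1 or Jurkat 4 h replicate 1 or 3. The KO call was also lost without untreated replicate 1 or Jurkat 4 h replicate 3. Lrp1 (Entrez 16971, mm10 chromosome 10, 127538158 to 127621148, minus strand) did not pass in WT (log2 -0.21, FDR 0.0732) or KO (log2 -0.23, FDR 0.0557). It passed in both under total-count scaling (-0.62 and -0.56) and with no filter (FDR 0.024 in WT and 0.0199 in KO). In WT it also passed with these groups fitted alone (FDR 0.00513). It passed in neither with DESeq2, its size factors, the stricter filter or the replicate block in all libraries.

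As a measure of reads of the added Jurkat cells, 12 genes of a list of 24 T-lineage genes were summed. They were kept because they lay under 1 CPM in untreated cells. Their summed level was 2.90 ± 0.0357 CPM in untreated WT cells, 23.5 ± 1.26 CPM after 30 min with Jurkat cells and 66.6 ± 12.1 CPM after 4 h (n = 3 each). The KO sums were 3.51 ± 0.677, 15 ± 3.08 and 47.8 ± 6.67 CPM in the same order. At 4 h the WT libraries (52.6 to 73.9 CPM) and KO libraries (41.8 to 55.0 CPM) overlapped. Of the 23 genes tested from the full list, 18 rose and 5 fell in WT at 4 h with Jurkat cells, and 14 rose and 6 fell in KO. Cd28, which was not among the 12, averaged 52.9 CPM in untreated WT cells and 23.0 CPM at that time. The part of human reads in the counts of the 10 genes was not tested.

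The second question was whether the response depended on Rubcn. A test of the difference between the KO and WT responses passed for 1 of the 10 genes at 4 h with Jurkat cells, where 4.26% of all genes passed (1.72% upward and 2.55% downward), and for none with OVA or at 30 min. That gene was Mertk: its rise in KO cells was smaller by 0.84 on the log2 scale (SE 0.179, FDR 0.00662), or 1.8-fold. The call held in all 21 alternatives run, with values of -1.05 to -0.68 and an FDR of at most 0.0354. For Axl the difference was -0.37 (95% interval -0.63 to -0.12, FDR 0.0961). Without the third untreated KO library the Axl difference was -0.49 and passed (FDR 0.0226). For the other 8 genes at 4 h the FDR was 0.456 or more, with Timd4 at 0.37 (95% interval -0.35 to 1.08) and Tyro3 at -0.37 (-1.0 to 0.27). The percentages of all genes called in the other 3 differences were 0, 0.00675 and 0.0405 for OVA 30 min, Jurkat 30 min and OVA 4 h. At an unadjusted p under 0.05, Mertk passed in the first of these, Gas6 and Mfge8 in the second and no member in the last, and DESeq2 called 0 members in any of them.

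Set side by side after 4 h with Jurkat cells, 4 of the 10 genes differed between KO and WT, 2 higher and 2 lower in KO, where 22.9% of all genes differed (9.37% higher and 13.5% lower). Of all genes called there, 40.9% were higher in KO, against 74.8% under total counts, while the 4 members kept their direction. Both genes lower in KO were TAM receptors: Axl was 1.39-fold lower (log2 -0.47, SE 0.0906, FDR 0.000353) and Mertk 1.58-fold lower (log2 -0.66, SE 0.125, FDR 0.000316), with no overlap of libraries. Without KO replicate 2 of this group the values were -0.46 and -0.60 (FDR 0.0031 and 0.00401). Neither passed in untreated cells (Axl log2 -0.10, FDR 0.604; Mertk 0.19, FDR 0.446). At 4 h with OVA, Axl held 190, 198 and 166 CPM in WT and 163, 152 and 147 CPM in KO libraries, without overlap. That difference of -0.26 did not pass (FDR 0.0626). It did with the replicate block (FDR 0.0401) and with these groups fitted alone (FDR 0.00641). It also passed with no filter (FDR 0.0376) and without WT replicate 3 of that condition (FDR 0.0251). Same-numbered WT and KO libraries of that condition did not deviate together (r -0.235 to -0.153), which limits the blocked value. Axl was lower in KO in all 5 conditions (log2 -0.47 to -0.04) and Mertk in 4 of 5. With the replicate number as a block and the untreated groups fitted alone, Mertk was 0.19 higher in untreated KO cells (FDR 0.0393). Same-numbered untreated WT and KO libraries deviated together (r 0.256 to 0.485), so that block was also run. Libraries of different numbers were not compared, so a shared batch behind the numbers is not shown. Tyro3 did not differ at 4 h with Jurkat cells (log2 -0.03, 95% interval -0.44 to 0.37). Of 9 plasmacytoid dendritic cell genes, 5 were lower in KO in untreated cells, 6 and 5 with OVA at 30 min and 4 h, and 4 and 7 with Jurkat cells at 30 min and 4 h, with 1 higher in each condition. Their summed level was 3055 to 3117 CPM in WT and 2649 to 2821 CPM in KO untreated libraries, and 4134 to 4842 CPM against 3331 to 3702 CPM at 4 h with Jurkat cells. At that time 4 of 8 genes of type 1 conventional dendritic cells were lower and 2 higher in KO (sums of 1619 to 1875 CPM in WT and 1292 to 1433 CPM in KO). Ifi205 held the largest part of those sums (means of 1128 CPM in WT and 867 CPM in KO), while Xcr1 held 160 and 155 CPM. Of 7 neutrophil genes, 4 were lower and 0 higher (126 to 134 CPM in WT and 99.5 to 106 CPM in KO). Other lists went the other way at that time. Of 8 genes of type 2 conventional dendritic cells, 4 were higher and 0 lower in KO. Their sums were 607 to 692 CPM in WT and 689 to 735 CPM in KO. Of 10 stromal genes, 9 were higher and 0 lower in KO. Of 14 monocyte and macrophage genes, 1 passed upward and 2 downward, with sums of 3983 to 4365 CPM in WT and 4153 to 4549 CPM in KO libraries. The part of these cell types and of the ribosomal RNA counts in the Axl and Mertk results was not tested.

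**Figure D4:**
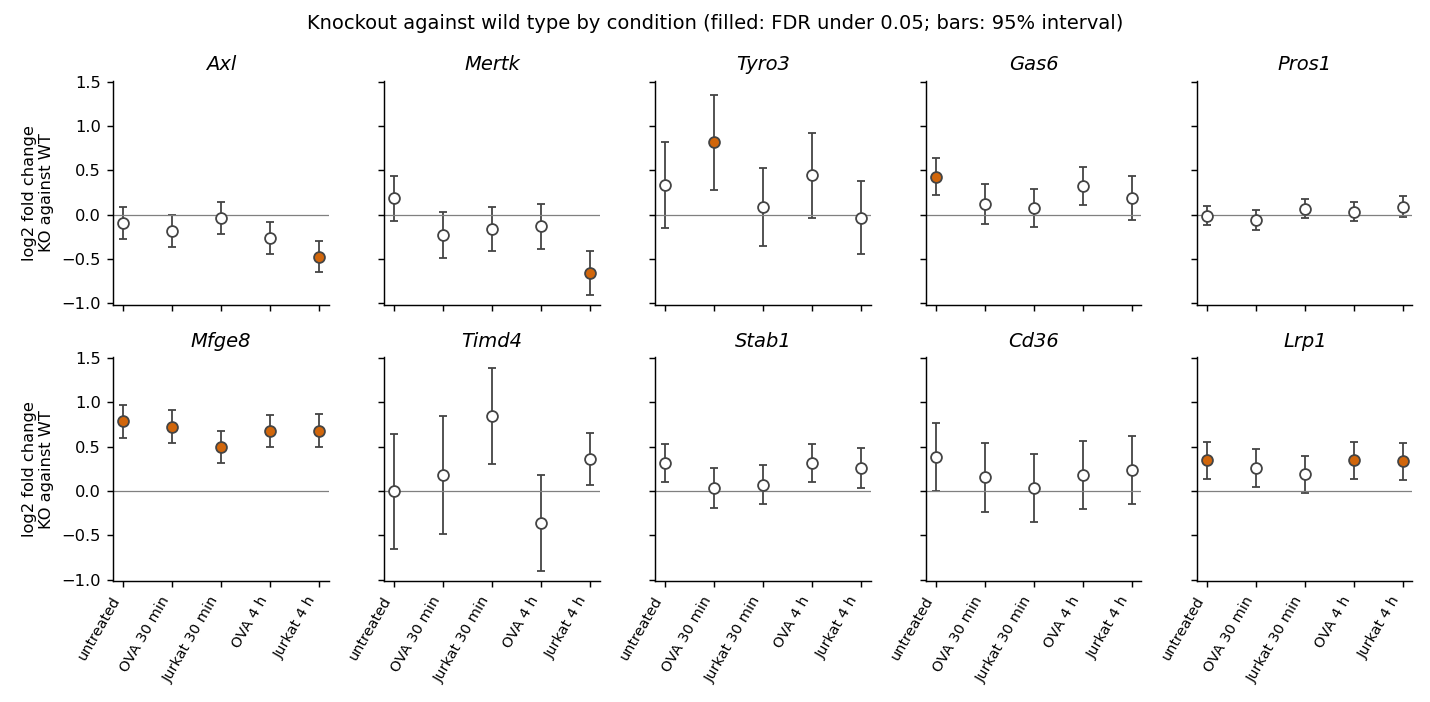
Log2 fold change of KO against WT for each gene (panels) in the 5 conditions, with 95% intervals; filled points passed an FDR of 0.05. Mfge8 is higher in KO in every condition (0.50 to 0.79), Axl is below 0 in all 5 conditions and Mertk in 4, and both passed at Jurkat 4 h only (-0.47 and -0.66), and the Pros1 points lie near 0 throughout.

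Mfge8 was the member that differed between genotypes in every condition. The untreated libraries held 65.3, 65.7 and 62.2 CPM in WT and 131, 105 and 97.6 CPM in KO. With OVA the WT libraries held 77.1, 61.9 and 66.4 CPM at 30 min and 72.0, 78.7 and 68.7 CPM at 4 h, against 111, 118 and 109 CPM and 122, 113 and 115 CPM in KO. With Jurkat cells they held 75.3, 66.2 and 83.6 CPM at 30 min and 81.6, 79.6 and 76.4 CPM at 4 h, against 94.8, 103 and 121 CPM and 138, 124 and 119 CPM in KO. All KO libraries stood above all WT libraries of the same condition, and the 5 KO groups ranked above the 5 WT groups. The log2 difference was 0.79 in untreated cells (SE 0.0941, FDR 1.16e-06), 0.72 and 0.68 with OVA at 30 min and 4 h, and 0.50 and 0.68 with Jurkat cells at 30 min and 4 h. Its FDR was at most 0.000789 in the 5 conditions, and each call held in every alternative run.

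Besides Mfge8, Lrp1 was called higher in KO in 3 conditions, and Gas6 and Tyro3 in 1 each. The calls lower in KO were those of Axl and Mertk at 4 h with Jurkat cells. In untreated cells 3 of the 10 genes passed (Mfge8, Gas6 and Lrp1), where 9.97% of all genes did (6% higher and 3.97% lower). With OVA 2 passed at 30 min (Mfge8, Tyro3) and 2 at 4 h (Mfge8, Lrp1), where 12.4% (6.25% higher, 6.13% lower) and 12.6% (6.22% higher, 6.35% lower) of all genes did. Of the genes called at those 2 times, the share higher in KO 50.5% and 49.5%, against 63.8% and 64.5% under total counts. At 30 min with Jurkat cells Mfge8 alone passed, where 9.25% of all genes did (5.58% higher and 3.67% lower). These comparisons share the genotype but no libraries.

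Lrp1 gave 248, 219 and 222 CPM in untreated WT libraries and 350, 272 and 255 CPM in KO (log2 0.35, SE 0.107, FDR 0.0354). Its groups did not overlap in 4 of the 5 conditions, and KO was higher by 0.19 to 0.35 on the log2 scale in all 5. The 3 calls were fragile: in untreated cells the call was lost with DESeq2, in a fit of these groups alone, or without WT replicate 2, WT replicate 3 or KO replicate 1. At 4 h with OVA or with Jurkat cells, leaving out WT replicate 1 or 3, or KO replicate 1 or 2, of that condition ended the call. Gas6 held 24, 18.6 and 18.2 CPM in untreated WT and 32.0, 24.5 and 25.3 CPM in untreated KO libraries (log2 0.43, SE 0.109, FDR 0.00953). That call was also lost without WT replicate 2, WT replicate 3 or KO replicate 1, down to a log2 difference of 0.30. In the other conditions Gas6 in KO was higher by 0.07 to 0.32 without passing (at 4 h with OVA the FDR was 0.056, and 0.04 with DESeq2). At 4 h with OVA it also passed under total counts (FDR 0.032), with no filter (FDR 0.0359) and with these groups alone (FDR 0.000397).

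Tyro3 at 30 min with OVA held 0.707, 0.367 and 0.681 CPM in WT and 0.978, 1.01 and 1.25 CPM in KO libraries. The highest of these, in KO replicate 3, was 13 counts in the shallowest library (9.73 M counts). The log2 difference of 0.81 (SE 0.272, FDR 0.0478) was lost without WT replicate 2 or any KO library of that condition. Stab1 and Cd36 were higher in KO in all 5 conditions without passing (log2 0.03 to 0.32 and 0.04 to 0.39). In untreated cells both passed with the replicate number as a block and these groups fitted alone. Stab1 gave 0.30 (FDR 0.00335) and Cd36 0.34 (FDR 0.00747). Stab1 also passed there with no filter (FDR 0.0413). At 4 h with OVA Stab1 passed under total counts (FDR 0.0306), with no filter (FDR 0.0346) and with these groups alone (FDR 0.000563). At 4 h with Jurkat cells the groups alone gave calls for Stab1 (FDR 0.0129) and Cd36 (FDR 0.0246). DESeq2 called neither gene in these conditions. Pros1 was the steadiest gene between genotypes: its log2 differences ran from -0.06 to 0.09, and the widest 95% interval in the 5 conditions reached from -0.03 to 0.21. Under total counts Pros1 (0.17, FDR 0.0272) and Stab1 (0.34, FDR 0.0243) passed at 4 h with Jurkat cells.

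**Figure D5:**
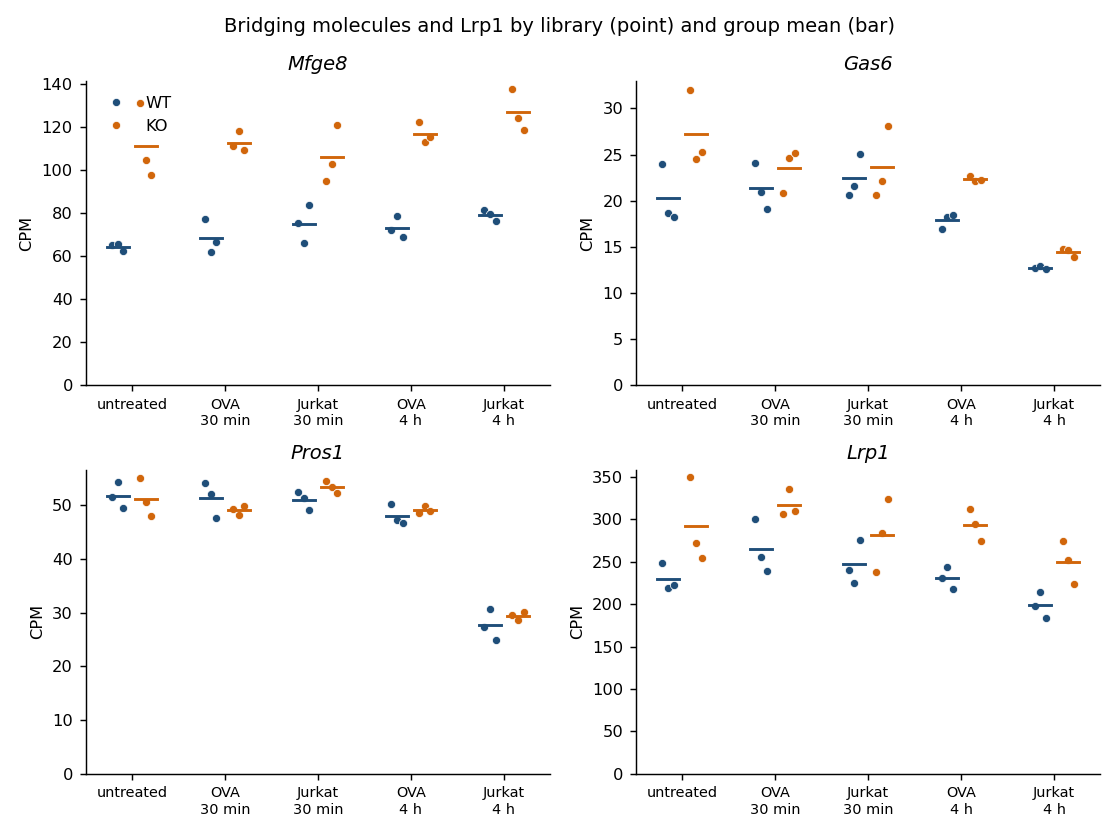
CPM of Mfge8, Gas6, Pros1 and Lrp1 in each library (points) with group means (bars) over the 5 conditions, WT in blue and KO in orange, on linear axes from 0. Mfge8 in KO (94.8 to 138 CPM) lies above WT (61.9 to 83.6 CPM) throughout, while Gas6 and Pros1 drop at Jurkat 4 h in both genotypes.

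Marker genes of other cell types also differed between the genotypes. Of 10 stromal genes, 7 were higher in untreated KO cells and none lower, and 5 to 9 were higher in the other conditions. Their summed level was 611 to 696 CPM in untreated WT and 784 to 993 CPM in untreated KO libraries, led by Col1a2, Col1a1 and Sparc, while Lum never exceeded a group mean of 0.469 CPM. All 7 basophil and mast cell genes were higher in KO in every condition, with sums of 22.2 to 28.6 CPM in WT and 56.6 to 87.5 CPM in KO untreated libraries. Of the 14 monocyte and macrophage genes, 2 passed upward and 1 downward in untreated cells, with sums of 4266 to 4754 CPM in WT and 4470 to 5224 CPM in KO. The part of these cells in the higher Mfge8, Lrp1, Gas6 and Tyro3 of KO libraries was not tested.

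OVA moved few of the genes. At 4 h, 2 of the 10 rose in WT cells, where 23.5% of all genes passed (11.9% upward, 11.7% downward), and 1 rose in KO cells, where 11.6% passed (5.94% upward, 5.69% downward). Axl rose to 190, 198 and 166 CPM in WT (log2 0.49, SE 0.0923, FDR 0.000207), above all untreated WT libraries. In KO it rose to 163, 152 and 147 CPM (log2 0.33, SE 0.0925, FDR 0.0174), a call lost without KO untreated replicate 2 or 3 or without KO OVA 4 h replicate 1. Timd4 rose in WT to 2.23, 2.40 and 2.0 CPM (log2 0.90, SE 0.294, FDR 0.0253), which was lost without WT untreated replicate 2 or 3 or WT OVA 4 h replicate 1 or 2. In WT cells Cd36 at 4 h with OVA reached 313, 332 and 224 CPM (log2 0.47, FDR 0.0834), and it passed with the replicate block (log2 0.48, FDR 0.0427). With the block in these groups alone Mfge8 passed there too (log2 0.18, FDR 0.00398).

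At 30 min few of the genes passed against untreated cells. In WT cells Cd36 averaged 209 CPM untreated, 281 CPM with OVA and 282 CPM with Jurkat cells. Neither Cd36 change passed (log2 0.43 in each, FDR 0.18 and 0.0988), nor did that of Tyro3 in WT with Jurkat cells (log2 0.57, FDR 0.0769). With OVA, 1 of 10 passed in WT (10.7% of all genes passed, 5.51% upward and 5.15% downward) and 0 in KO (3.77%, with 1.88% in each direction; 1 at an unadjusted p under 0.05, 0 by DESeq2). The WT call was Mertk, with 24.5, 21.6 and 18.6 CPM (log2 0.40, SE 0.128, FDR 0.0414), which overlapped the untreated libraries and was lost when any of 4 single libraries was left out. With Jurkat cells 0 of 10 passed in WT (28.7% of all genes, 14.2% upward and 14.5% downward; 4 at an unadjusted p under 0.05, 0 by DESeq2) and 1 in KO (17% of all genes, 8.72% upward and 8.26% downward). That call was Timd4 with 4.29, 1.32 and 2.0 CPM (log2 1.1, SE 0.285, FDR 0.00731). It rested on the first library: without it the log2 fold change was 0.49 (FDR 0.198). With the replicate block, in WT cells, Cd36 passed at 30 min with Jurkat cells (315, 227 and 304 CPM, log2 0.45, FDR 0.0479). With the block in these groups alone Mfge8 passed there as well (log2 0.21, FDR 0.0418).

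Jurkat cells were then compared with OVA at the same time, which sets 2 kinds of added material side by side. At 4 h, 4 genes were higher and 2 lower with Jurkat cells in WT (77.5% of all genes passed, 37.2% upward and 40.3% downward) and likewise in KO (76.4%, 36.3% upward and 40.1% downward). Of all genes called there, 48.0% in WT and 47.5% in KO were higher, against 26.5% and 27.5% under total counts. In both genotypes the higher genes were Axl, Mertk, Tyro3 and Timd4 and the lower ones Gas6 and Pros1. Axl was 5.43-fold higher in WT and 4.69-fold in KO, Timd4 16.9-fold and 27.9-fold, Tyro3 2.65-fold and 1.91-fold, and Mertk 1.97-fold and 1.37-fold. Pros1 was 1.74-fold lower in WT and 1.67-fold in KO, and Gas6 1.41-fold and 1.55-fold. For Mfge8 the difference did not pass in either genotype (log2 0.12 in each, FDR 0.27 and 0.248), and under total counts it was -0.27 in WT and -0.22 in KO and passed in both. Lrp1 and Stab1 also passed under total counts (Lrp1 -0.60 in WT and -0.58 in KO, Stab1 -0.58 and -0.59), from -0.19 to -0.24 without a call. With these groups fitted alone both passed as well (Lrp1 FDR 0.00477 in WT and 0.00757 in KO, Stab1 0.0116 and 0.00385). At 30 min, Tyro3 alone was higher with Jurkat cells, in WT (log2 0.95, SE 0.251, FDR 0.00593; 24.3% of all genes passed, 11.9% upward and 12.3% downward), with 0.875, 1.35 and 1.16 CPM against 0.707, 0.367 and 0.681 CPM. Without WT OVA 30 min replicate 2 that call was lost (FDR 0.0619). In KO 0 genes passed at 30 min, where 10.2% of all genes did (5.3% upward and 4.92% downward; 2 at an unadjusted p under 0.05, 0 by DESeq2).

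Several of the genes varied together within groups. Deviations of log2(CPM + 1) from the group means were compared over the 30 libraries, as a description. Of the 45 pairs of members, 23 had a Pearson correlation over 0.5, and the values ran from -0.35 to 0.96. The share among all gene pairs is not given, so this count does not set the members apart from genes at large. Tyro3, the scarcest, gave -0.35 to 0.21 with the others. The highest was that of Stab1 with Lrp1 (Spearman's rho 0.96, and r 0.95 without the 2 libraries farthest from the median). Mertk and its ligand Gas6 gave r 0.88, whereas the 2 TAM ligands Gas6 and Pros1 gave r 0.15. The deviations of 8 members also went with those of the summed monocyte and macrophage genes (r 0.54 for Gas6 to 0.86 for Cd36), with 0.12 for Timd4 and -0.15 for Tyro3. The part of those cells in this was not tested. In 1 library of WT with OVA at 30 min, replicate 1, all 10 genes were highest of their group, and in untreated KO replicate 1 this held for 9 of 10. These were the most one-sided groups. In KO with OVA at 30 min, replicates 1, 2 and 3 were highest for 1, 4 and 5 genes. The share of all genes is not given beside these counts, so they may describe whole libraries.

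The genes whose levels over the 30 libraries were most like each member, by Pearson correlation of log2(CPM + 1), were named as a description. For Axl they were M6pr and Slfn3 (r 0.996 and 0.995), for Timd4 Pvr and Bhlhe40 (0.993 and 0.993) and for Pros1 Snx25 and Fam102b (0.989 and 0.987). These values are set largely by the split between Jurkat 4 h and the other groups. Mfge8, which splits by genotype, was most like Stac2 and F7 (0.967 and 0.963), and Gas6 most like Fcgr3 and Cd84 (0.952 and 0.941). Mertk went with Sash1 and Tlr8 (0.916 and 0.891), Cd36 with Lpl and Pcdh7 (0.911 and 0.901) and Tyro3 with Repin1 and Pik3r3 (0.902 and 0.902). Lrp1 and Stab1 shared Atp6v0d2 (0.883 and 0.849) and were also like Mical2 (0.879) and Pmp22 (0.876), respectively.

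Related genes of the uptake pathway were counted at 4 h with Jurkat cells, against the 79.5% (WT) and 78.5% (KO) of all genes that passed. A further list held soluble opsonins and other proteins that bind or mark dying cells, not all of them opsonins. Of its 10 genes tested, 10 rose in WT and 8 in KO and 0 fell. The median log2 change was 0.79 and 0.57 (all genes tested: -0.02 and -0.03). Under total counts 7 and 5 rose. The complement component C3 rose most clearly (log2 4.99 in WT and 4.93 in KO), with annexin A5 (Anxa5, 1.0 and 0.84) and calreticulin (Calr, 0.89 and 0.82). Among 21 other receptors for dying cells, 8 rose and 10 fell in WT, and 8 rose and 11 fell in KO (medians -0.06 and -0.25). Cd14 rose (2.68 and 2.79), while the scavenger receptor Scarb1 (-1.67 and -1.47) and the phosphatidylserine receptor Havcr2 (TIM-3, -1.15 and -1.41) fell. Of 8 genes of inhibitory pairs that restrain uptake or immune cells, 4 rose and 4 fell in WT and 4 rose and 3 fell in KO (medians 0.49 and 0.45). Cd274 (PD-L1) rose by 5.70 and 5.32 and Cd47 by 1.12 and 0.99.

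Signalling below the receptors was mixed. Of 19 engulfment genes, 12 rose and 5 fell in WT and 11 rose and 6 fell in KO (medians 0.22 and 0.13), a split that turned to 5 and 11 in WT and 4 and 10 in KO under total counts. The kinase Src rose (log2 2.98 and 2.84), and the kinase subunit Pik3cg (-1.49 and -1.45) and Elmo2, a partner of the Rac activator Dock1 (-0.86 and -0.82), fell. Of 13 genes of sterol sensing and lipid efflux, which handle the cholesterol of engulfed cells, 5 rose and 5 fell in WT and 6 rose and 5 fell in KO (medians 0.02 and -0.03; under total counts 4 and 8, and 3 and 8). Nr1h3 (liver X receptor alpha) rose by 2.57 in both, and its target Mylip, which promotes loss of the LDL receptor, by 1.42 and 1.22. Of 9 genes that modify the vitamin K-dependent ligands, chaperone Lrp1 or shed receptors, 3 rose and 6 fell in each genotype (medians -0.38 and -0.34). Among them Furin, a processing protease, rose (1.32 and 1.08), Vkorc1l1, of vitamin K recycling, fell (-0.97 and -0.95), and in KO the sheddase Adam17, which can cut Mertk and Axl from the surface, rose by 1.11. Adam17 met the naming rule in KO only, so no WT value is given for it. For the difference between responses there, 0 of the 9 genes passed upward and 1 downward (all genes: 1.72% and 2.55%). Each gene named in these lists kept its direction under total counts. The lists were written with earlier results of these data known.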

How the data were processed

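RNA was sequenced in 30 libraries, whose titles gave the group and the replicate number. Trizol and column extraction preceded a TruSeq v2 library preparation, per the labels' protocols. All values come from a single table that the authors deposited, holding raw counts for each gene and its mm10 interval, per the file headers. The submitters' processing notes name STAR 2.5, Subread, featureCounts 1.5.0-p1 and DESeq2 without their roles. The annotation, the use of strand and the treatment of human reads were given in none of the sources used, so counts of overlapping or near-identical genes are uncertain.

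The 10 genes and all lists were chosen with earlier results of these data known. The filterByExpr function, given the groups, passed 14808 genes, and TMM factors scaled the libraries (0.765 to 0.842 in Jurkat 4 h libraries, 1.03 to 1.07 in the others). Groups were compared by the two-sided quasi-likelihood test of edgeR 4.0.16 in R 4.3.3, with 1 coefficient for each group and all libraries fitted together. A call needed an FDR (Benjamini-Hochberg, all tested genes) under 0.05, and the script was tested on simulated data. SE is the absolute log2 fold change over the root of F, and 95% intervals are 1.96 SE to each side. CPM per kb used exon lengths of GENCODE vM21, and promoter sequences came from RefSeq (GRCm38.p6). From each list up to 3 genes per comparison with the smallest p, an FDR under 0.05 and at least 5 CPM were named. For each member, the 2 genes of highest correlation with a mean of at least 5 CPM were named.

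Same-numbered libraries were checked for shared deviations from their group means over 10230 genes. Among 17 pairs of groups compared, every correlation was over 0.1 in 3: untreated KO with WT (0.256 to 0.485), untreated WT with WT Jurkat 30 min (0.172 to 0.347) and untreated WT with WT OVA 4 h (0.145 to 0.412). In those 3 pairs the blocked value stands beside a result where it changed the call. It is also given for Axl between KO and WT at 4 h with OVA, where every correlation was negative (-0.235 to -0.153). Untreated KO with KO OVA 4 h was negative throughout as well (-0.126 to -0.0304). Libraries of different numbers were not compared, so a shared batch behind the replicate numbers is not shown. The alternatives were DESeq2 (1.42.0), its size factors, total counts, scaling without genes higher with Jurkat cells, no filter, a stricter filter (5 CPM in 3 libraries), a replicate block, the compared groups alone and leaving out each library. The block with the compared groups alone was chosen after seeing the data.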

Additional observations from a re-analysis of the deposited data

Results flagged for a closer look

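The Mertk response to apoptotic Jurkat cells at 4 h differed between the genotypes in a test of the difference itself. The KO response minus the WT response was -0.84 on the log2 scale (SE 0.179, FDR 0.00662 in edgeR's test over all genes), with a rise of 1.13 in WT and 0.28 in KO (-0.054 under total counts). All 3 WT libraries (33.0 to 40.5 CPM) lay above all 3 KO libraries (20.9 to 24.3 CPM) at that time. The summed T-lineage genes used to follow Jurkat reads averaged 66.6 CPM in WT and 47.8 CPM in KO, and plasmacytoid dendritic cell genes averaged 4378 CPM in WT and 3560 CPM in KO (untreated: 3082 and 2716 CPM). Without KO Jurkat 4 h replicate 2, the library high in ribosomal RNA precursor counts, the difference was -0.79 (FDR 0.0217). The part of these in the difference was not tested.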

How the results depend on the processing

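The 48 calls of single members gave 415 values under other settings, of which 401 kept direction and call, 12 lost the call and 2 turned direction; without 1 library, 252 of 294 kept the call, 42 lost it and 0 turned. Both turns came with total-count scaling at Jurkat 4 h, Mfge8 in WT to -0.10 and Mertk in KO to -0.054. Between KO and WT, 12 calls became 23 with the replicate block in the compared groups alone (10 to 16 without 1 library). The OVA calls went from 4 to 10 under that block and from 2 to 6 without 1 library, with 2 when WT untreated replicate 2 or 3 was left out. At Jurkat 30 min, 1 call became 2 with the replicate block, with scaling without Jurkat-higher genes or with the groups alone, and 3 with the block in the groups alone. Without 1 library these calls ran from 0 (KO untreated replicate 2 or KO Jurkat 30 min replicate 1) to 4 (KO untreated replicate 1). The Jurkat 4 h calls numbered 17 and stayed at 15 to 20. The difference between responses had 1 call, Mertk, and 2 without KO untreated replicate 3. Jurkat against OVA went from 13 calls to 20 under the block in the groups alone (13 to 17 without 1 library). The replicate block in the fit of all libraries otherwise gave 13, 5, 17, 1 and 15 calls in these comparisons other than Jurkat 30 min. Except where fewer libraries were fitted, the cause of these changes was not tested. Tyro3 and Timd4, mostly under 3 CPM outside Jurkat 4 h, are limited by depth more than the other genes.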

Other observations

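Some other receptors for dying cells differed between KO and WT as well. Of the 21 tested, 2 were higher and 1 lower in untreated KO cells (all genes: 6% and 3.97%). At 4 h these counts were 3 and 4 with OVA (6.22% and 6.35%) and 4 and 3 with Jurkat cells (9.37% and 13.5%). At 30 min they were 1 and 1 with OVA (6.25% and 6.13%) and 2 and 1 with Jurkat cells (5.58% and 3.67%). Clec9a, which binds exposed actin of dead cells on conventional dendritic cells of type 1, was lower in KO in all 5 conditions. Its log2 differences were -0.37 in untreated cells (151 CPM in WT and 117 CPM in KO), -0.37 and -0.39 with OVA at 30 min and 4 h, and -0.21 and -0.52 with Jurkat cells at 30 min and 4 h. The FDR was at most 0.00914 in edgeR's test over all genes, and the direction held under the 2 other scalings run. Clec9a is also 1 of the 8 marker genes of type 1 cells, of which 1 was higher and 1 lower in untreated KO cells. The part of those cells in the Clec9a values was not tested. Havcr2 was higher in KO by 0.18 in untreated cells and by 0.25 at 4 h with OVA, but its fall with Jurkat cells at 4 h was larger in KO (difference -0.26, SE 0.0583, FDR 0.0115). Marco, a scavenger receptor, held 15.2 CPM in WT and 4.97 CPM in KO at 4 h with OVA (log2 -1.61, SE 0.184, FDR 4.07e-07). That value compares the genotypes at 1 time. In the test of the difference between OVA responses at 4 h, 0 of the 21 other receptors passed (0.0405% of all genes).

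Among soluble opsonins, Thbs1 (thrombospondin-1), which bridges dying cells to Cd36 and integrins, was higher in KO in untreated cells (log2 0.42, FDR 0.00612), at 30 min with Jurkat cells (0.50, FDR 0.0016) and at 4 h with OVA (0.59, FDR 0.00013). Timp3, an inhibitor of the sheddase Adam17, was higher in KO in untreated cells (0.35, FDR 0.0367), at 30 min with Jurkat cells (0.60, FDR 0.000501) and at 4 h with Jurkat cells (0.53, FDR 0.000353). Both genes are also expressed by stromal cells, whose marker genes were higher in KO libraries, and their part in these values was not tested.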
